A study of Homo sapiens with 12 samples.

Results

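The well-expressed antisense long noncoding RNAs (lncRNAs) of HCC1806 cells are described here. They were chosen as the genes of the deposited expression table whose symbol ends in -AS1 and whose mean value over the 12 libraries is at least 7 on the table's log2 scale. This scale is a variance-stabilizing transformation of normalized reads, on which 7 corresponds to 79.5 normalized reads. 109 genes met the rule, of 520 with such a symbol and of 17013 genes in all. Each is set beside the gene named before -AS1, which is called its partner below. HCC1806 is an established basal-like triple-negative breast cancer (TNBC) cell line. Cells received either a control siRNA without a target (siNT) or a pool of 4 siRNAs (siMLK4) against the kinase MLK4, encoded by MAP3K21. They were then given vehicle (DMSO in the sample labels, untreated in the study's methods) or 1 μM doxorubicin, a topoisomerase II poison, for 24 h. These 4 groups have 3 libraries each, all from this line, so the results describe 1 line, 1 dose and 1 time. The vehicle samples carry the time label 0 h and the drug samples 24 h. The study's methods set untreated cells beside drug-treated ones without a separate collection time, and its supplement describes DMSO or the drug over the same 24 h, so the sources differ on whether the time in culture also differed. The methods say that the transfections were made in triplicate and, of experiments in general, that they were repeated, but not whether the 3 libraries of a group came from separate experiments, so p-values measure the spread between these libraries.

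Natural antisense transcripts are made from the strand opposite a coding gene. Some start beside the coding gene's own start site and run away from it (head-to-head), and others start further inside or beyond the gene and run through it. They are capped, usually spliced and polyadenylated, and many are kept low by nuclear RNA decay through the exosome. For some of them an effect on the partner, on other genes or on microRNAs is known, and for most no function has been shown.

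The siRNA label was checked first. MAP3K21 had 553, 669.6 and 674 normalized reads in siNT cells with vehicle and 758, 856 and 772 with doxorubicin. After siMLK4 it had 103, 94.7 and 88.7 with vehicle and 113, 138 and 94.4 with doxorubicin. This left 15.1% of the siNT mean with vehicle and 14.5% with doxorubicin, and the libraries of the siRNA groups did not overlap. The 4 siRNAs are shown because antisense RNAs can hold short words that match their seeds. Each is written as the strand that reads like the MAP3K21 message, and the capitals are the word that the guide's seed (guide bases 2 to 8) pairs with.
siRNA #1: ggaaagaugcuCAGAGAGauu
siRNA #2: aggagaagcccAAGGUAAauu
siRNA #3: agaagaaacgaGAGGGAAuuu
siRNA #4: agaacagauugCAAAGAAauu
Only 1 annotated transcript of each gene, the canonical one, was searched, and its length was not taken into account. The words occurred in those of 32, 11, 20 and 34 of the 109 antisense genes, in this order. These are 29.4, 10.1, 18.4 and 31.2% of them, against 24.0, 9.63, 20.7 and 22.5% of the 2462 lncRNA genes of the table. At least 1 word was held by 64 antisense genes (58.7%) and by 51.7% of the lncRNA genes.

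The epithelial and basal markers (EPCAM, CDH1, KRT5, KRT14, KRT17, KRT18 and EGFR) were all measured. In siNT cells the basal keratins KRT5, KRT14 and KRT17 had means of 20880, 6001 and 4118 normalized reads with vehicle and 8817, 2461 and 4069 with doxorubicin. KRT18 had 20690 and 9104, EGFR 6186 and 2356, CDH1 4274 and 3511 and EPCAM 13820 and 13290. Of the 3 genes listed as low in TNBC cells, ESR1, the oestrogen receptor, had means of 92.7 with vehicle and 46.5 with doxorubicin in siNT cells, and PGR, the progesterone receptor, had 0 and 13.3. ERBB2, the HER2 receptor, was not low in these libraries, with means of 1459 and 1588 in siNT cells and 1893 and 1853 in siMLK4 cells, or 164.5 normalized reads per kilobase over all libraries against 4587 for EPCAM. Of 7 markers of other cell types, CD3E, PECAM1 and COL1A2 were not in the table. In siNT cells PTPRC, a marker of blood cells, had a mean of 5.48 normalized reads with vehicle and 20.3 with doxorubicin. CD14 had 11.4 and 25.0, and ACTA2, smooth muscle actin, had 16.5 and 151. COL1A1 was the most abundant, with means of 286 and 267 in siNT cells and 529 and 405 in siMLK4 cells. Summed, the 4 had 345, 309 and 304 normalized reads in siNT cells with vehicle and 516, 473 and 402 with doxorubicin. In siMLK4 cells the sums were 549, 535 and 644 with vehicle and 611, 638 and 637 with doxorubicin. Their part in the results below was not tested. In bulk RNA, fewer cells of a kind and less RNA per cell cannot be told apart.

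The start regions of the antisense genes with the largest log2 rises with doxorubicin in either siRNA group are shown next. ELF3-AS1, which rose most with siMLK4, is added, so that what lies at their starts can be compared. The windows run from 250 bases before to 50 bases after the RefSeq start (GRCh38.p14), read 5′ to 3′ in the direction of the antisense gene. Capitals mark the words searched on both strands, which were CCAAT (the CCAAT box), GGGCGG (the GC box), TGANTCA (an AP-1 word), TGACGTCA (a cAMP response word) and CACGTG (an E-box word). TGANTCA and TGACGTCA share their ends but cannot be the same match.
RALY-AS1 promoter window, chr20:33994318-33994617, minus strand: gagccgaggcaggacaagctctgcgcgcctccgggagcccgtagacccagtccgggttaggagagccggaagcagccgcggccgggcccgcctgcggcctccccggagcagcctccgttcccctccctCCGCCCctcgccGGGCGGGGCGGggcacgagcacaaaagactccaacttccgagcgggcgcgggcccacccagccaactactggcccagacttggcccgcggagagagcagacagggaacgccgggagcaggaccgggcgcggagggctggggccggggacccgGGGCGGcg
RASSF8-AS1 promoter window, chr12:25959393-25959692, minus strand: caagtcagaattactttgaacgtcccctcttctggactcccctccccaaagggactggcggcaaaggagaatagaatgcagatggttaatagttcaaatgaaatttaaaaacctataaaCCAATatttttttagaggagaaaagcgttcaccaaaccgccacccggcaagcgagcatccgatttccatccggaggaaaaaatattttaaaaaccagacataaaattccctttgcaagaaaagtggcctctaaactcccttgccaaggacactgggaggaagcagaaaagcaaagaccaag
NAXD-AS1 promoter window, chr13:110616304-110616603, minus strand: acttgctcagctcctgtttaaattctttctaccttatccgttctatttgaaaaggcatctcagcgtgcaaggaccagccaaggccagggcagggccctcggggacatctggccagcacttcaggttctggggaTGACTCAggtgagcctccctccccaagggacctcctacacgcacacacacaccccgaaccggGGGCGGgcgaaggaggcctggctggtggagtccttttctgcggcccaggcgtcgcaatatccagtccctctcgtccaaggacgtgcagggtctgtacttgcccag
NUP153-AS1 promoter window, chr6:17705880-17706179, plus strand: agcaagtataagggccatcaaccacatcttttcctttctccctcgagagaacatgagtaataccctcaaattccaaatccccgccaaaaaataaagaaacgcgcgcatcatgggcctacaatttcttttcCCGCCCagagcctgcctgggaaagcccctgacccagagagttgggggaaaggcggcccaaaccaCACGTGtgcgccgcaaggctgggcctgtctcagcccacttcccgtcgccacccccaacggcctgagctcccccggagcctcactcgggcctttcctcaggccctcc
ELF3-AS1 promoter window, chr1:202010304-202010603, minus strand: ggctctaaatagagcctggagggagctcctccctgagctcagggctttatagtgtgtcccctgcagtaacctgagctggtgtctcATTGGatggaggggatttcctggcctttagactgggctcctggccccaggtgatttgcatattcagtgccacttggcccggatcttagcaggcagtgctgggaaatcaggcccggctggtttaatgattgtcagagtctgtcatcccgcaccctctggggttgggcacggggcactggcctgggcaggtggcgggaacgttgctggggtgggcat
The RALY-AS1 window had 4 GC boxes and a GC content of 76%. The RASSF8-AS1 window had 1 CCAAT box, no GC box and a GC content of 43%. The NAXD-AS1 window held 1 AP-1 word and 1 GC box. In the NUP153-AS1 window 1 GC box and 1 E-box word were found. RASSF8-AS1 and NUP153-AS1 each have 2 RefSeq starts in the table, of which the one listed first is printed. The other RASSF8-AS1 window had 1 CCAAT box and 1 AP-1 word, and the other NUP153-AS1 window had 1 GC box and no E-box word. Of the 300 bases of the ELF3-AS1 window, 267 are also in the window of ELF3 on the opposite strand. The promoter table held 87 of the 109 antisense genes. A GC box was found in at least 1 window at 71.3% of these 87, at 40.3% of all 1353 -AS1 genes of the promoter table and at 48.3% of all its 27305 genes. The median GC content was 64.0, 56.7 and 58.3%, in this order. Both larger sets also hold genes not measured in these cells. Of the 35 among the 87 that were called higher with doxorubicin in siNT cells (defined below), 68.6% had a GC box, against 75.5% of the 49 that were not called. The AP-1 word was at 11.4% of these 35 (4 genes), 4.08% of these 49 (2 genes) and 9.37% of all genes. For the E-box word the shares were 14.3, 12.2 and 8.78%, and for the CCAAT box 31.4, 42.9 and 39.7%. For the cAMP response word they were 5.71 (2 genes), 2.04 (1 gene) and 2.25%. These matches are letters in a window and do not show that a factor bound there.

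OIP5-AS1 (chr15:41283958-41322392, plus strand) was the most abundant antisense gene, with a mean value of 12.18. It is named for OIP5, a protein that helps load the centromere histone, and its RNA is known to bind a microRNA. It had 5409.7, 5462 and 5966 normalized reads in siNT cells with vehicle and 3729, 4027 and 4507 with doxorubicin, and its change of -0.46 did not pass the threshold. FGD5-AS1 had a mean value of 11.00, AFAP1-AS1 10.80, CCDC144NL-AS1 10.29 and PAX8-AS1 10.19. AFAP1 is an actin filament protein and PAX8 a transcription factor of thyroid and kidney. None of these 5 was called in any of the 4 comparisons. At the lower edge of the rule stood ARHGAP5-AS1 and TRAM2-AS1 with 7.01 and SLC44A3-AS1 with 7.0045. Just outside were FLRT2-AS1 with 6.998, MAP3K4-AS1 with 6.99 and PNISR-AS1 with 6.99.

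Per kilobase of annotated exon, the median level of the 109 antisense genes was 39.6 normalized reads and that of their measured partners 102. The partner was measured for 93 of them, and 26 antisense genes lay above their partner per kilobase. SVIL-AS1 had the highest level per kilobase, 2658, which rests on an annotated exon length of 122 bases. Each of the 109 had at least 12 reads in each library. By the annotation 105 are lncRNA genes and 4 (SVIL-AS1, EMC3-AS1, TP73-AS1 and SLC44A3-AS1) are pseudogenes of some kind. The start lies head-to-head with the partner, at most 1000 bases away on the other strand, in 40 cases. Another 66 overlap the partner otherwise, 2 (IGFL2-AS1 and SVIL-AS1) do not overlap it, and PYDC2-AS1 is on the same strand as its partner, so that its name does not describe its position. The median share of exon bases that lie opposite partner exons was 5.4%. It was 0 for 21 genes and at least 50% for 7. The reads were counted by strand, which is what keeps the antisense gene and its partner apart, but 16 antisense genes also share exon bases with another gene on their own strand. SVIL-AS1 shares 100% of them with a longer lncRNA gene annotated under the same symbol, and AGAP2-AS1 shares 91.9% with OS9, so the reads of both are uncertain. The median SD within groups was 0.170 for the antisense genes and 0.167 for all genes, on the log2 scale.

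The first question was how the antisense genes answered doxorubicin in cells with MLK4. Limma was fitted to all 17013 genes, and those with a log2 change beyond 0.75 in either direction and an adjusted p below 0.01 are termed called. The mean that chose the 109 includes the drug libraries, through which a gene that rises can pass the rule. The shares, medians and sums below therefore describe the chosen genes and do not rank them against all genes. In siNT cells 42 of 109 (38.5%) were higher with doxorubicin, against 12.1% of all genes, and 5 (4.6%) were lower, against 10.6%. Of the 42 that were higher, 26 had a mean value under 7 with vehicle. The median log2 change of the 109 was 0.43, and that of all genes 0.00. In siMLK4 cells 35 (32.1%) were higher, against 12.6% of all genes, and 8 were lower, against 10.6%, with a median change of 0.30 (all genes 0.02). The groups of libraries did not overlap, with doxorubicin higher, for 58 antisense genes in siNT cells and 53 in siMLK4 cells, against 32.0 and 33.4% of all genes. Scaled by library totals, not by the size factors of the deposited values, 49 were higher and 4 lower in siNT cells, while the split of all genes went from 2060 higher and 1799 lower to 2848 and 1094. By limma-voom, and likewise on log2(normalized reads + 1), 50 were higher and 9 lower in siNT cells. All genes then split into 3067 higher and 2340 lower by limma-voom and 3192 and 2399 on log2(normalized reads + 1). The comparisons in siNT and siMLK4 cells share no library. 34 antisense genes were called higher in both and 5 lower in both, against 8.82 and 7.59% of all genes. The sum of the 109 took 1449, 1421 and 1526 RPM (reads scaled to the library total) in siNT cells with vehicle and 2170, 2092 and 2031 with doxorubicin. In siMLK4 cells the sums were 1678, 1613 and 1601 with vehicle and 2162, 2203 and 2096 with doxorubicin, and vehicle and drug libraries did not overlap in either. Among those called higher in siNT cells the ratio of mean normalized reads ran from 1.80 to 10.1, with a median of 3.28.

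**Figure D1:**
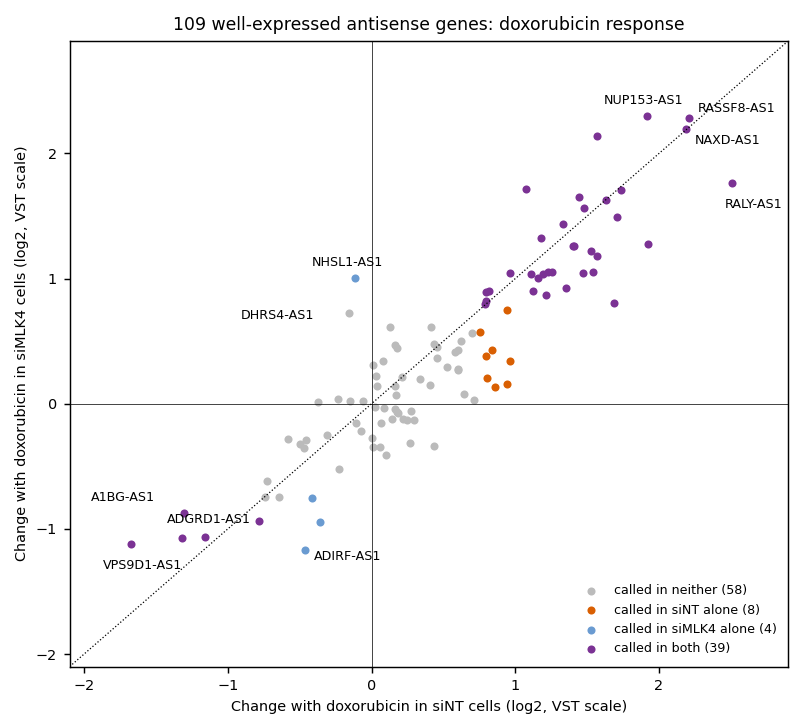
Change with doxorubicin in siNT cells (horizontal axis) and in siMLK4 cells (vertical axis) on the log2 variance-stabilized scale, with 1 point for each of the 109 antisense genes and the line of equal change dotted. Of the points, 39 were called in both siRNA groups, 8 in siNT cells alone and 4 in siMLK4 cells alone, and RALY-AS1, RASSF8-AS1, NAXD-AS1 and NUP153-AS1 lie at the upper right.

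RALY-AS1 (chr20:33980679-33994357, minus strand) had the largest log2 rise in siNT cells. By the ratio of mean normalized reads others rose more, up to 10.1-fold. RALY-AS1 starts 731 bases from RALY, an RNA-binding protein of the hnRNP family, and shares no exon base with it. In siNT cells it had 55.2, 69.6 and 53.9 normalized reads with vehicle and 645, 582 and 448 with doxorubicin (log2 change 2.51, SE 0.15, adjusted p = 3.5e-08), a 9.38-fold difference of the means. In siMLK4 cells it had 109, 118 and 105 and 495, 585 and 405 (log2 change 1.76, SE 0.15, adjusted p = 4.7e-07). The drug libraries were all above the vehicle libraries in both siRNA groups, and the vehicle libraries of siMLK4 cells were all above those of siNT cells. RALY itself had 4229.6, 4369.7 and 3742 normalized reads with vehicle and 4062, 3572 and 3810.2 with doxorubicin in siNT cells, which overlap, and its change of -0.11 was not called.

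RASSF8-AS1 (chr12:25936683-25959765, minus strand) starts 760 bases from RASSF8, a member of the Ras association domain family. It rose from 27.0, 31.1 and 25.8 normalized reads to 345, 269.8 and 237 in siNT cells (log2 change 2.21, SE 0.14, adjusted p = 4.2e-08). In siMLK4 cells it rose from 17.0, 15.9 and 23.8 to 269.6, 261 and 208 (log2 change 2.28, SE 0.14, adjusted p = 4.0e-08). All drug libraries lay far above all vehicle libraries. RASSF8 rose with it, from 577, 674 and 758 to 1296, 1706 and 1451 in siNT cells (log2 change 1.09, SE 0.18, adjusted p = 1.8e-04), and by 1.25 in siMLK4 cells, which was also called. NAXD-AS1 (chr13:110613082-110616353, minus strand) is head-to-head with NAXD, an enzyme that repairs damaged NADH and NADPH. It had 14.1, 36.3 and 37.0 normalized reads with vehicle and 321, 291 and 220.0 with doxorubicin in siNT cells (log2 change 2.19, SE 0.20, adjusted p = 9.7e-07). In siMLK4 cells it went from 25.0, 22.9 and 29.2 to 279.8, 355 and 183 (log2 change 2.19, SE 0.20, adjusted p = 1.0e-06). The groups were apart in both, while the differences of NAXD, 0.35 and 0.38, were not called. NUP153-AS1 (chr6:17706094-17707344, plus strand) had the largest log2 rise in siMLK4 cells, from 54.1, 87.7 and 94.1 normalized reads to 582, 559.5 and 551 (log2 change 2.30, SE 0.18, adjusted p = 3.1e-07). Others, among them RASSF8-AS1 and NAXD-AS1, rose more there by the ratio of mean normalized reads. In siNT cells NUP153-AS1 rose from 115, 71.6 and 67.4 to 574, 428 and 353 (log2 change 1.92, SE 0.18, adjusted p = 1.2e-06). The differences of its partner, a protein of the nuclear pore, were -0.19 and -0.15 and were not called, although 51.9% of the exon bases of NUP153-AS1 lie opposite NUP153 exons.

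VPS9D1-AS1 (chr16:89711856-89718165, plus strand) fell most in siNT cells. It had 191, 249 and 220.0 normalized reads with vehicle and 36.0, 41.7 and 40.6 with doxorubicin (log2 change -1.67, SE 0.17, adjusted p = 1.8e-06). In siMLK4 cells it fell from 188, 170.4 and 102 to 39.0, 61.7 and 39.0 (log2 change -1.12, SE 0.17, adjusted p = 5.9e-05). The lowest vehicle library in each siRNA group was above the highest drug library. ADGRD1-AS1 (chr12:130990138-130993976, minus strand) lies in the gene of ADGRD1, an adhesion G protein-coupled receptor, and fell from 305, 467 and 571 to 109.8, 184 and 148 in siNT cells (log2 change -1.32, SE 0.21, adjusted p = 1.1e-04). Its change in siMLK4 cells was -1.08, also called, and there ADGRD1 rose by 1.15 (adjusted p = 1.1e-06). In siNT cells the change of ADGRD1 was 0.40 and was not called. A1BG-AS1 (chr19:58347718-58355455, plus strand), named for a plasma glycoprotein whose gene was not measured, fell from 418, 389 and 359 normalized reads to 153, 120.1 and 115 in siNT cells (log2 change -1.30, SE 0.11, adjusted p = 6.6e-07). In siMLK4 cells it fell from 477, 482 and 547 to 261, 232 and 259 (log2 change -0.88, SE 0.11, adjusted p = 2.0e-05). Vehicle and drug libraries were apart in both. PRRT3-AS1 and TP73-AS1 were the other antisense genes called lower in both, with changes of -1.16 and -0.79 in siNT cells, and are named after their values were seen. TP73 encodes a relative of p53.

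**Figure D2:**
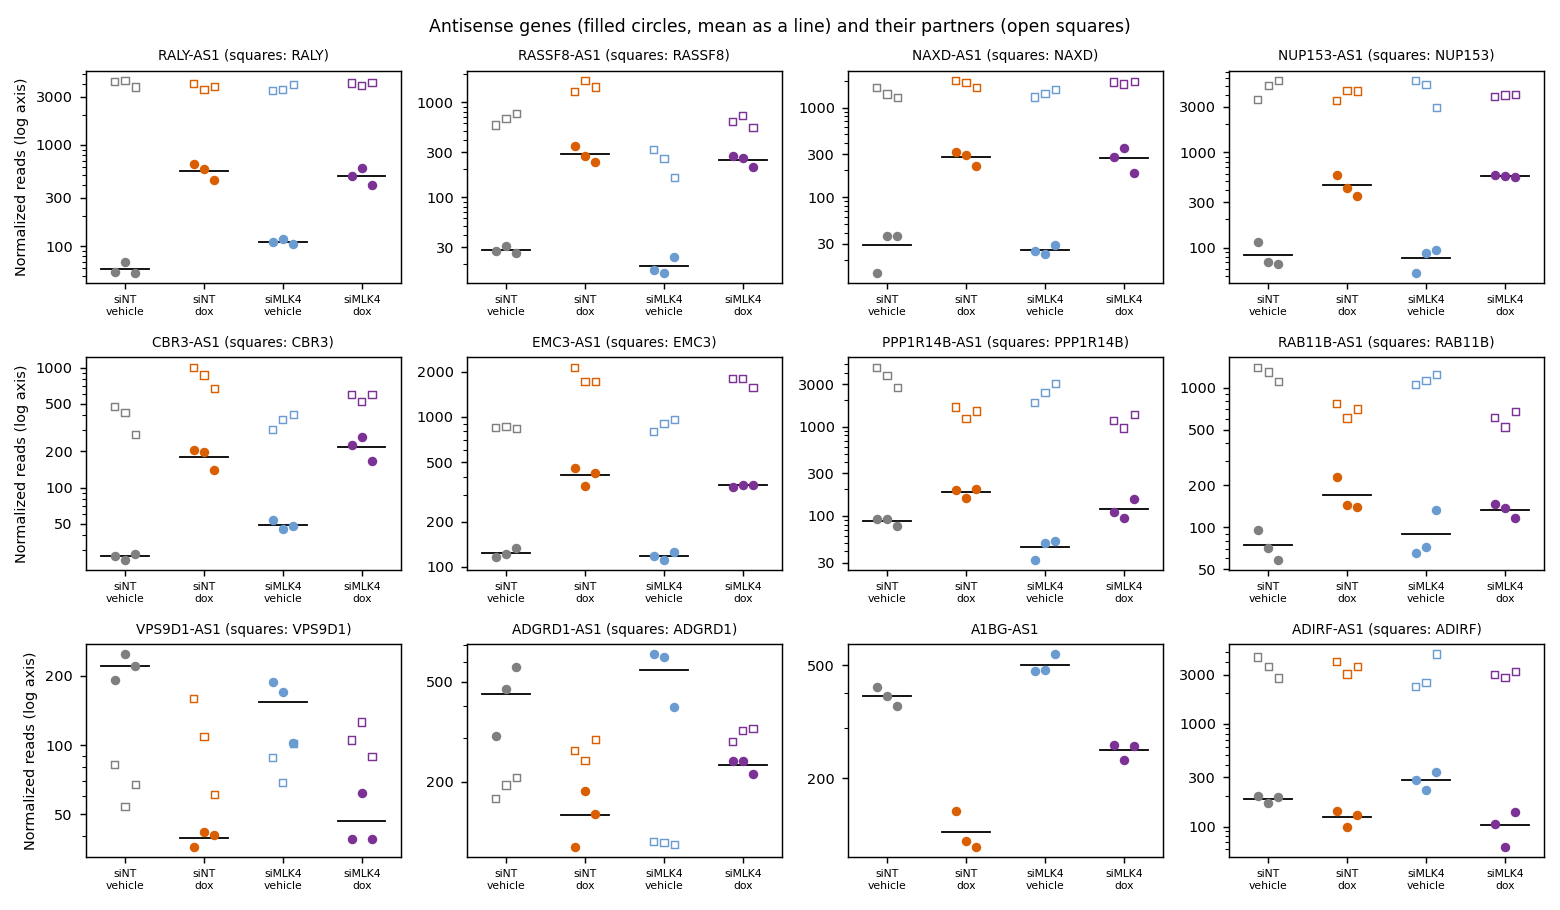
Normalized reads (vertical axis, log) of 12 antisense genes in the 12 libraries by group, with filled circles for the antisense gene, a line for its group mean and open squares for its partner. RALY-AS1, RASSF8-AS1, NAXD-AS1 and NUP153-AS1 have all drug libraries above all vehicle libraries in both siRNA groups, and VPS9D1-AS1, ADGRD1-AS1 and A1BG-AS1 have them below.

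The antisense genes were also grouped by what the partner is known to do. The assignment was made with their values known, and it says nothing of what the antisense RNA does. The groups hold 6 to 19 genes, and their counts stand against 38.5% higher of all 109 in siNT cells and 32.1% in siMLK4 cells, and against 12.1 and 12.6% of all genes. The share higher ran from 18.2 to 66.7% over the groups in siNT cells, and no difference between groups was tested. For partners of the nucleus, chromatin and mitosis, 5 of 8 antisense genes were higher with doxorubicin in siNT cells and none was lower. Besides NUP153-AS1 these were TMPO-AS1 (1.41), HMGN3-AS1 (1.21), ERCC6L2-AS1 (1.11) and WAC-AS1 (0.79). TMPO encodes proteins of the nuclear lamina and HMGN3 a nucleosome-binding protein. The same 5 were called in siMLK4 cells. Of 6 with partners of RNA processing and translation, 4 were higher in siNT cells and 3 in siMLK4 cells, and they include RALY-AS1, NOP14-AS1 (1.23) and THUMPD3-AS1 (1.15). NOP14 is a protein of small ribosomal subunit assembly. For kinases, GTPase regulators, receptors and adaptors, 9 of 19 were higher and 1 was lower in siNT cells, and 7 were higher and 1 lower in siMLK4 cells. RASAL2-AS1, named for a Ras GTPase-activating protein, went from 41.1, 20.8 and 24.7 normalized reads to 242, 241 and 187 in siNT cells, with no overlap.

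For transcription factors, 6 of 16 were higher and 1 was lower in siNT cells, and 5 were higher and 2 lower in siMLK4 cells. ZFHX3-AS1, beside a zinc finger homeobox gene, changed by 1.57 in siNT and 2.14 in siMLK4 cells. GABPB1-AS1, beside a subunit of the GA-binding protein, changed by 1.47 and 1.05. For metabolism, mitochondria and transporters, 5 of 15 were higher in siNT cells with none lower, and CKMT2-AS1, beside the gene of a mitochondrial creatine kinase, changed by 1.18. In siMLK4 cells 5 were higher and KCNJ5-AS1, beside a potassium channel gene, was lower (-0.94). For membrane traffic, ubiquitin and protein quality, 7 of 19 were higher and 1 was lower in siNT cells, but only 4 were higher and 1 was lower in siMLK4 cells by the threshold. KTN1-AS1, named for a kinesin receptor, changed by 0.82 in siNT cells. For the cytoskeleton, adhesion and matrix 2 of 11 were higher in siNT cells and 3 in siMLK4 cells. DSP-AS1 is among them, beside the gene of desmoplakin of the desmosome, with 28.2, 26.0 and 32.6 normalized reads with vehicle and 229.8, 186 and 122 with doxorubicin in siNT cells. Of the other 15, 4 were higher and 2 lower in siNT cells, and 3 and 3 in siMLK4 cells. The genes named in the role groups that do not appear elsewhere in the report were chosen after their values were seen.

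These shares stand beside those of other gene classes in the same fit, without a test of the difference. Among the 411 antisense genes with a mean under 7, 117 were higher and 2 lower in siNT cells, and 115 and 8 in siMLK4 cells, with medians of 0.52 and 0.45. Of the 42 divergent transcripts (symbols ending in -DT) with a mean of at least 7, 13 were higher and 3 lower in siNT cells, and 11 and 2 in siMLK4 cells. Their medians were 0.37 and 0.16. Other lncRNA genes with a mean of at least 7 numbered 291, of which 56 were higher and 32 lower in siNT cells, and 43 and 39 in siMLK4 cells, with medians of 0.10 and -0.08. Of the 10729 protein-coding genes with such a mean, 901 were higher and 1535 lower in siNT cells, and 996 and 1413 in siMLK4 cells, with medians of -0.11 and -0.06. The 93 measured partners, for which the threshold of 7 was not used, had 13 higher and 9 lower in siNT cells and 12 and 9 in siMLK4 cells, with a median change of -0.05 in siNT cells. Head-to-head antisense genes had 17 of 40 higher and none lower in siNT cells and 14 higher and none lower in siMLK4 cells, and their medians were 0.62 and 0.40. Those that overlap the partner otherwise had 24 of 66 higher and 5 lower in siNT cells, and 21 and 8 in siMLK4 cells, with medians of 0.27 and 0.21. Without the 16 that share same-strand exon bases with another gene, 37 of 93 (39.8%) were higher in siNT cells and 5 lower. The partners of the antisense genes called higher in siNT cells had a median mean value of 10.1, against 9.11 for partners of those not called. A mean over all 12 libraries lets a gene pass the rule through its drug libraries. Of the 42 called higher in siNT cells, 26 had a mean value under 7 with vehicle, and of the 35 in siMLK4 cells 21 did, so these counts describe the chosen genes and rank them against no other class.

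**Figure D3:**
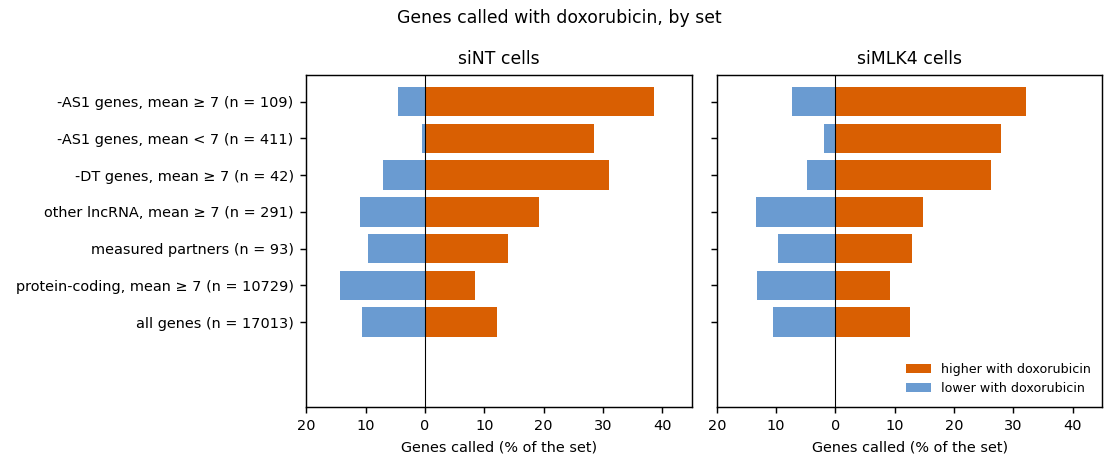
Share of each gene set called higher (orange, to the right of 0) and lower (blue, to the left of 0) with doxorubicin, in siNT cells (left panel) and siMLK4 cells (right panel), in percent of the set. The orange bars of the antisense genes with a mean of at least 7 reach 38.5 and 32.1%, where the mean that chose them includes the drug libraries, and the protein-coding genes have longer blue than orange bars.

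The next question was whether the partner moved with the antisense gene. Of the 36 antisense genes that were higher in siNT cells and had a measured partner, 28 had a partner that was not called, 6 had a partner that was also higher and 2 had a partner that was lower. These are 77.8, 16.7 and 5.56%, against 74.8, 16.9 and 8.30% where a gene of any opposite-strand pair of the table was higher (1217 cases, each pair read from both of its genes), so the shares of the antisense genes lie near those of such pairs in general. The change of the partner was negative for 21 of these 36 (58.3%), against 44.9% of the 1217, which were not matched to the partners by level or gene class. It was negative for 49 of all 93 measured partners. Of the 10729 protein-coding genes with a mean of at least 7, 6206 had a negative change, a share near that of the 36 partners. No difference between these shares was tested. Over the 93 pairs the changes had the same sign in 36, and over 4139 opposite-strand gene pairs of the table in 50.1%. In siMLK4 cells 47 of 93 had the same sign, against 51.1%. Pearson's r across the pairs was 0.00 under siNT and -0.02 under siMLK4, where the points share libraries and scaling and are not independent.

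The pairs that rose together in siNT cells were those of RASSF8, CBR3, ANXA2R, EMC3, SLC44A3 and GATA2. CBR3-AS1 overlaps CBR3, a carbonyl reductase, and had 27.0, 24.9 and 28.1 normalized reads with vehicle and 207, 196 and 139 with doxorubicin in siNT cells (log2 change 1.70, SE 0.15, adjusted p = 6.3e-07). CBR3 went from 474, 424 and 275 to 1009, 866 and 674 (log2 change 1.04, SE 0.18, adjusted p = 1.9e-04), and the groups were apart for both genes. In siMLK4 cells CBR3-AS1 changed by 1.49, which was called, and the difference of CBR3, 0.60, was not. EMC3-AS1, annotated as a pseudogene beside the gene of a subunit of the ER membrane protein complex, rose from 115, 120.4 and 134 to 455, 346 and 419.8 in siNT cells (log2 change 1.40, SE 0.11, adjusted p = 2.8e-07). EMC3 rose from 852, 861 and 836 to 2153, 1718 and 1724 (log2 change 1.08, SE 0.11, adjusted p = 3.0e-06), and in siMLK4 cells the pair was also called, by 1.26 and 0.92. With doxorubicin all libraries of both genes lay above those with vehicle. EMC3-AS1 shares 26.2% of its exon bases with another gene on its strand. ANXA2R-AS1 and the annexin A2 receptor gene ANXA2R changed by 1.13 and 1.54 in siNT cells and by 0.90 and 0.91 in siMLK4 cells, all called. LBX2-AS1, beside a homeobox gene, was called in both siRNA groups (1.57 and 1.18), and LBX2 passed the threshold in siMLK4 cells (0.83) and not in siNT cells (0.62).

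Opposite calls were rarer. PPP1R14B-AS1 rose from 91.6, 92.4 and 77.5 to 197, 159.8 and 199.7 normalized reads in siNT cells (log2 change 0.80, SE 0.15, adjusted p = 4.0e-04), while PPP1R14B, which inhibits protein phosphatase 1, fell from 4656, 3730.2 and 2779.6 to 1666, 1244 and 1502 (log2 change -1.29, SE 0.20, adjusted p = 8.6e-05). In siMLK4 cells the changes were 0.89 and -1.01, both called. Vehicle and drug libraries were apart for both genes in both siRNA groups. The call of PPP1R14B-AS1 was lost without siNT vehicle library 3 (0.74) and, in siMLK4 cells, without siMLK4 doxorubicin library 3 (0.75, just under the threshold). RAB11B-AS1 rose from 96.3, 70.6 and 58.4 to 229.8, 145 and 139.9 in siNT cells (log2 change 0.84, SE 0.20, adjusted p = 0.0022). Its partner RAB11B, a small GTPase of recycling endosomes, fell from 1401, 1292 and 1101 to 765, 607 and 704 (log2 change -0.82, SE 0.13, adjusted p = 8.3e-05). The call of RAB11B-AS1 was lost without siNT doxorubicin library 1 (0.66) or siNT vehicle library 3 (0.73), and in siMLK4 cells it did not pass (0.43). Together with ADGRD1-AS1 in siMLK4 cells these are the opposite calls among the 93 pairs.

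**Figure D4:**
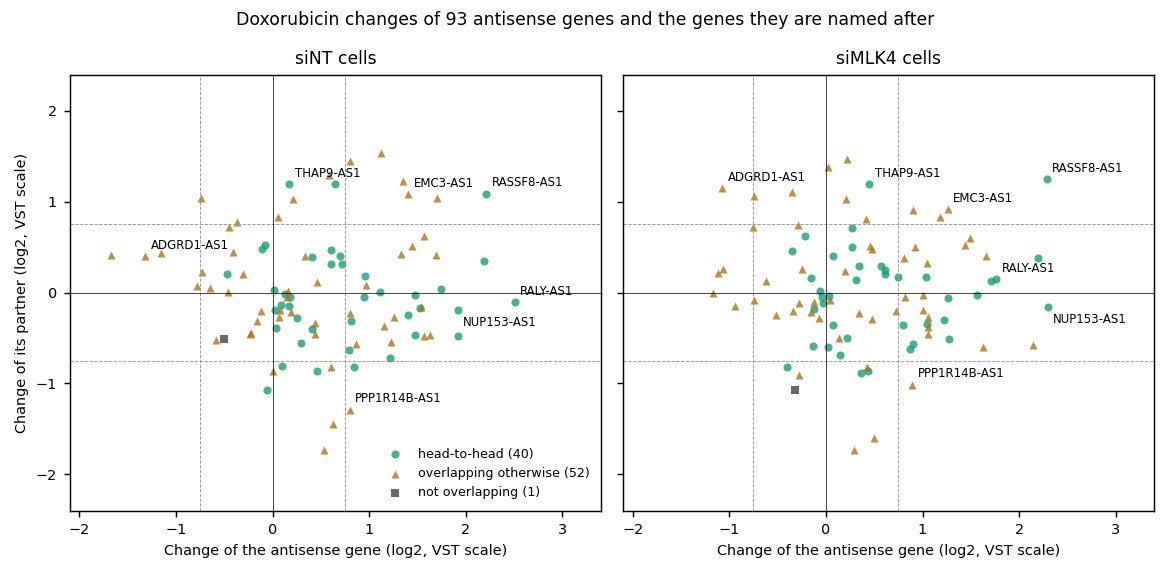
Change with doxorubicin of 93 antisense genes (horizontal axis) and of their partners (vertical axis) on the log2 variance-stabilized scale, in siNT cells (left) and siMLK4 cells (right), with dashed lines at the threshold of 0.75 and symbols for the position of the pair. Most points at the right lie between the horizontal dashed lines, where the partner was not called, and r is 0.00 and -0.02.

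Genes of RNA decay were examined because the exosome removes many antisense RNAs. All 21 genes of the list of the nuclear exosome and its cofactors were measured. With doxorubicin 1 was called higher and 2 lower in each siRNA group, below the shares of all genes, 12.1 and 10.6% in siNT cells and 12.6 and 10.6% in siMLK4 cells. In siNT cells DIS3, a catalytic subunit, was called higher with doxorubicin (0.87), and EXOSC8 (-1.28) and EXOSC5 (-0.75), subunits of the core, were called lower. The list median was -0.30, against 0.00 for all genes and -0.11 for protein-coding genes with a mean of at least 7. In siMLK4 cells EXOSC4 was called higher (0.77), and EXOSC8 (-1.17) and MPHOSPH6 (-0.81) lower. The list median there was -0.17, against -0.06 for such protein-coding genes. TENT4B, a poly(A) polymerase of nuclear decay, was the only gene of the list called with siMLK4 (-1.17 with vehicle and -0.91 with doxorubicin). Of the 21 genes that act on double-stranded RNA or on cytoplasmic noncoding RNA, none was higher and 1 was lower with doxorubicin in siNT cells, and 1 each way in siMLK4 cells, also below the shares of all genes. AGO1, an Argonaute protein, was called lower with doxorubicin in both siRNA groups (-0.76 and -0.88). ADARB1, an RNA-editing enzyme, was called higher in siMLK4 cells (0.77), and AGO4 was called higher with siMLK4 under doxorubicin (0.77). The medians of this list were -0.26 in siNT and -0.22 in siMLK4 cells. Whether these genes bear on the antisense RNAs was not tested.

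The last comparisons asked what the loss of MLK4 did to the antisense genes. With vehicle 3 of 109 were higher in siMLK4 than in siNT cells, against 2.51% of all genes, and 2 were lower, against 3.14%. With doxorubicin 4 were higher, against 2.66%, and 3 were lower, against 2.93%. The medians were 0.18 and 0.04 (all genes 0.01 and 0.02). These counts are small and depend on single libraries. Without siMLK4 vehicle library 3 the vehicle count was 3 instead of 5, while all genes split into 414 higher and 537 lower, against 427 and 534. Under doxorubicin the count was 4 without siMLK4 doxorubicin library 3 and 3 without siNT doxorubicin library 2, instead of 7. All genes split into 569 higher and 552 lower and into 380 and 473, in this order, against 452 and 498. When each library was scaled by its total the split was 6 higher and 0 lower with vehicle and 5 and 2 with doxorubicin. All genes then went from 427 higher and 534 lower to 632 and 346 with vehicle, and from 452 and 498 to 623 and 396 with doxorubicin.

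ELF3-AS1 (chr1:201995696-202010463, minus strand) rose most with vehicle. ELF3 is an ETS transcription factor of epithelial cells. ELF3-AS1 had 68.1, 58.1 and 75.2 normalized reads in siNT and 231, 227 and 262 in siMLK4 cells with vehicle (log2 change 1.34, SE 0.14, adjusted p = 1.1e-05), with no overlap. Under doxorubicin it had 141, 109.9 and 137 and 267, 203 and 306 (log2 change 0.78, SE 0.14, adjusted p = 8.9e-04). That call was lost without siMLK4 doxorubicin library 3 (0.67) or siNT doxorubicin library 2 (0.70), and the lowest siMLK4 library still lay above the highest siNT library. The differences of ELF3 with siMLK4, 0.59 and -0.21, were not called, and ELF3 rose with doxorubicin in siNT cells (1.20). In siMLK4 cells its change with doxorubicin, 0.40, was not called. The difference between these responses of ELF3 was -0.80 (adjusted p = 0.033 in limma) and was not called either. The canonical transcript of ELF3-AS1, 5296 bases long, holds 3 of the 4 siRNA seed words. ARHGAP5-AS1 had 52.8, 33.2 and 33.7 normalized reads in siNT and 84.2, 96.7 and 131 in siMLK4 cells with vehicle (log2 change 0.84, SE 0.15, adjusted p = 0.0012). Its call was lost without siMLK4 vehicle library 3 (0.71) and when the siNT and siMLK4 vehicle groups were fitted alone (adjusted p = 0.015). PCBP1-AS1, named for a poly(C)-binding protein, had 202, 126 and 134 and 302, 319.9 and 295 (log2 change 0.83, SE 0.13, adjusted p = 5.1e-04). The siMLK4 libraries of both genes were above all their siNT libraries with vehicle, and the call of PCBP1-AS1 was lost without siNT vehicle library 2 (0.73) and in the same fit of these groups alone (adjusted p = 0.015).

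TRHDE-AS1 (chr12:72249964-72276954, minus strand) was the only antisense gene called lower with siMLK4 under both conditions. TRHDE is an enzyme that degrades thyrotropin-releasing hormone. TRHDE-AS1 had 126, 134 and 127 normalized reads in siNT and 68.1, 52.8 and 43.2 in siMLK4 cells with vehicle (log2 change -0.82, SE 0.13, adjusted p = 4.9e-04). With doxorubicin it had 181, 218 and 185 and 87.3, 111 and 73.5 (log2 change -0.82, SE 0.13, adjusted p = 5.1e-04). The siMLK4 libraries were below all siNT libraries each time. Its calls were lost without siMLK4 vehicle library 3 (-0.73) and without siMLK4 doxorubicin library 3 (-0.73), and the call with vehicle was lost with library totals as scaling (-0.71). TRHDE fell with siMLK4 under vehicle as well (log2 change -0.90, SE 0.21, adjusted p = 0.006), and with doxorubicin its change of -0.50 was not called. TRHDE-AS1 holds 1 seed word. THAP9-AS1 (chr4:82893009-82900960, minus strand) starts 225 bases from THAP9, a gene derived from a transposase, and holds 3 seed words. It had 1161, 877 and 1257 in siNT and 593, 564 and 652 in siMLK4 cells with vehicle (log2 change -0.80, SE 0.12, adjusted p = 3.1e-04). The groups were apart, and the call was lost without siNT vehicle library 3 (-0.70), with library totals (-0.66) or upper quartiles (-0.71) as scaling, and with the vehicle groups fitted alone (adjusted p = 0.014). It shares 11.0% of its exon bases with SEC31A on the same strand. The difference of THAP9 with siMLK4, 0.06, was not called. With doxorubicin THAP9 rose by 1.19 in siNT and 1.20 in siMLK4 cells, where the differences of THAP9-AS1, 0.17 and 0.45, were not called.

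Under doxorubicin DHRS4-AS1, named for a dehydrogenase/reductase, had the largest rise with siMLK4, from 53.5, 60.1 and 67.9 to 149, 200.1 and 163 normalized reads (log2 change 1.04, SE 0.13, adjusted p = 1.0e-04). SLC9A3-AS1, beside the gene of a sodium-proton exchanger, had 264, 183 and 97.3 in siNT and 376, 443 and 302 in siMLK4 cells (log2 change 0.93, SE 0.21, adjusted p = 0.0057). The libraries of both genes did not overlap between the siRNA groups. The call of SLC9A3-AS1 was lost without siMLK4 doxorubicin library 1 (adjusted p = 0.025) or 2 (0.030), without siNT doxorubicin library 2 (0.016) or 3 (0.020), and with the doxorubicin groups fitted alone (0.013). A1BG-AS1 was the fourth that rose (0.76, just past the threshold). Its call was lost without siMLK4 doxorubicin library 1 and without siNT doxorubicin library 2 or 3. FBXL19-AS1, beside an F-box gene of ubiquitin ligases, fell from 224, 287 and 251 to 119, 154 and 101 (log2 change -0.82, SE 0.14, adjusted p = 8.9e-04). Its siMLK4 libraries were all below its siNT libraries, and the call was lost without siMLK4 doxorubicin library 3 (-0.71) or siNT doxorubicin library 2 (-0.74). ZFPM2-AS1, beside a gene of a GATA cofactor, fell from 526, 439.8 and 449 to 242, 218 and 291 (log2 change -0.80, SE 0.14, adjusted p = 7.9e-04), also with no overlap. That call was lost without siMLK4 doxorubicin library 2 (-0.72) or siNT doxorubicin library 1 (-0.73), and with library totals as scaling (-0.73). FBXL19-AS1 (canonical transcript of 3951 bases) and ZFPM2-AS1 (748 bases) hold 1 seed word each and DHRS4-AS1 (2609 bases) holds none. Whether the seed words bear on these changes was not tested.

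**Figure D5:**
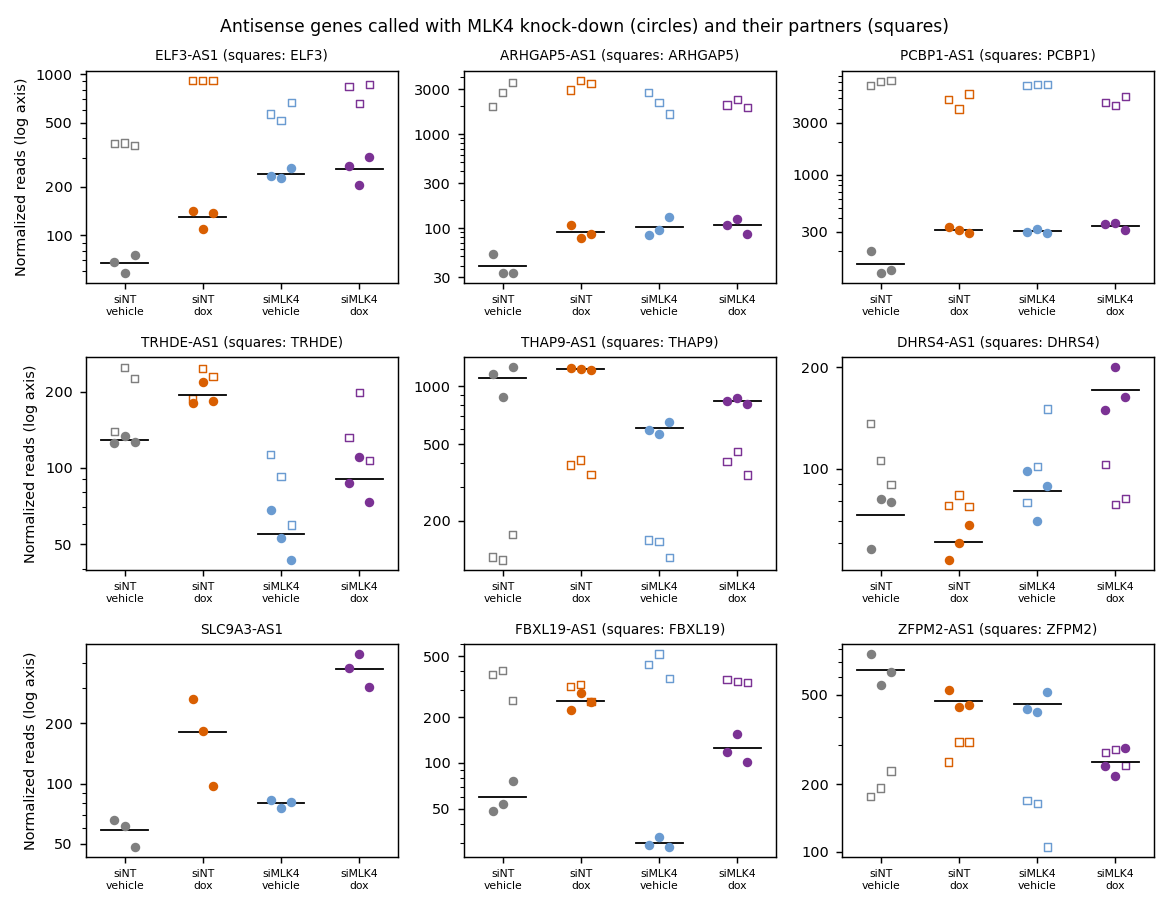
Normalized reads (vertical axis, log) of 9 antisense genes called with siMLK4 in the 12 libraries by group, with filled circles for the antisense gene, a line for its group mean and open squares for its partner. ELF3-AS1 and PCBP1-AS1 lie higher in siMLK4 than in siNT cells with vehicle, and TRHDE-AS1 and THAP9-AS1 lie lower.

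Of the 93 measured partners, none was higher with siMLK4 under vehicle and 4 (SLC16A1, TRHDE, RASSF8 and PRKCH) were lower (4.30%), against 2.51 and 3.14% of all genes. With doxorubicin 2 were higher and 2 lower (2.15% each), against 2.66 and 2.93%. RASSF8 fell by siMLK4 from 577, 674 and 758 to 321, 254 and 161 normalized reads with vehicle (log2 change -1.31, SE 0.18, adjusted p = 1.7e-04), with no overlap. The difference of RASSF8-AS1, -0.24, was not called. With doxorubicin RASSF8 was called again (-1.16) and RASSF8-AS1 was not (-0.17). The changes had the same sign in 43 of 93 pairs with vehicle and in 55 with doxorubicin, against 52.0 and 57.3% of the opposite-strand gene pairs.

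The doxorubicin responses of siMLK4 and siNT cells were compared by the interaction, given as the response in siMLK4 cells minus that in siNT cells. No antisense gene was called, against 0.276% of all genes, and 28 of the 109 had an unadjusted p under 0.05. This is a larger share than that of all genes (2469 of 17013), and the difference was not tested. The interaction was negative for 68 of the 109, with a median of -0.14 (all genes 0.01). It was also negative for 193 of the 291 other lncRNA genes and 29 of the 42 -DT genes with a mean of at least 7 (medians -0.12 and -0.12). Among antisense genes with a mean under 7 it was negative for 237 of 411 (median -0.04). Of the 109, DHRS4-AS1 alone had an adjusted p under 0.05, as did 1.20% of all genes. It had 57.5, 81.0 and 79.7 normalized reads with vehicle and 53.5, 60.1 and 67.9 with doxorubicin in siNT cells, which overlap. In siMLK4 cells it had 98.2, 69.7 and 88.7 and 149, 200.1 and 163, which do not. The changes were -0.16 and 0.72, and their difference was 0.88 (SE 0.19, adjusted p = 0.036). The difference lost its adjusted p under 0.05 when any 1 of 8 of the 12 libraries was left out. These were siMLK4 doxorubicin libraries 1 and 2, siMLK4 vehicle library 2, each siNT doxorubicin library, and siNT vehicle libraries 2 and 3, with adjusted p from 0.058 to 0.095. Of the 8 antisense genes that were called higher in siNT cells only, PCBP1-AS1 had changes of 0.86 and 0.14, and their difference did not pass the threshold (log2 change -0.72, SE 0.19, adjusted p = 0.077). ADIRF-AS1, named for an adipogenesis regulatory factor, fell in siMLK4 cells, from 286, 224 and 342 to 105, 63.4 and 139 normalized reads (change -1.17), and its change of -0.46 in siNT cells was not called. The difference of -0.70 did not pass (adjusted p = 0.21). NHSL1-AS1, picked out with its values in view, was called higher in siMLK4 cells alone and no other antisense gene was. It had 199.6, 38.4 and 87.6 and 97.8, 82.5 and 68.9 in siNT cells and 54.1, 27.9 and 80.0 and 147, 151 and 138 in siMLK4 cells. Its siNT vehicle libraries spread widely, and its interaction did not pass (log2 change 1.12, SE 0.42, adjusted p = 0.22).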

How the data were processed

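Messenger RNA was sequenced from 12 libraries of HCC1806 cells, 3 in each of 4 groups. Per the study's methods, the authors isolated RNA with an RNeasy kit, selected poly(A) RNA and prepared libraries with the KAPA RNA HyperPrep kit. The tools the authors list are Trimmomatic 0.39 for trimming, HISAT2 for mapping, HTSeq 0.6.0 for strand-specific counting after optical duplicates had been dropped, and DESeq2 1.26.0 for normalization. The supplement names GRCh38 and the sample record names hg19, and coordinates here are those of GENCODE release 44 on GRCh38, by gene identifier, for 16957 of the 17013 genes. The deposited values are log2-scale variance-stabilized values, a unit read from the values themselves. Inverting the transformation gave whole reads within 0.05 for 100% of values, with size factors from 0.852 to 1.199 and 16759025 to 19302248 reads per library. These recovered reads, divided by the size factors, are the normalized reads in the text. The transformation compresses low values, so a log2 change understates that of a gene with few reads.

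The deposited values are on a log2 scale, so they were tested with limma, and limma-voom on the recovered reads was an alternative. Limma 3.58.1 (R 4.3.3) was fitted to the deposited values of all 17013 genes, with 12 libraries, 4 group means and a variance trend, and p-values were adjusted over all genes (Benjamini-Hochberg). All 12 libraries were used. Libraries with the same number had positive correlations between the siNT groups (0.46, 0.11 and 0.20) and between the doxorubicin groups (0.19, 0.52 and 0.56). However, siNT doxorubicin library 2 varied more with siNT vehicle library 3 (0.31). Between the siMLK4 groups the same-number values were -0.08, 0.18 and 0.34, and between the vehicle groups -0.72, 0.32 and -0.52. There siMLK4 library 3 varied with siNT library 1 (0.69), which a block by number does not model. Its bearing on the siMLK4 calls with vehicle was not tested. The number was used as a block only as an alternative, and any pairing is read from the values. Libraries of a group differed beyond sampling noise. The other alternatives were other scalings, transformations, filters, thresholds and levels for choosing the antisense genes, other distances for head-to-head pairs, and leaving out each library in turn.

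The antisense genes, the RNA decay lists, the thresholds and the naming rule were chosen with earlier results of these data known. Named are MAP3K21, the antisense genes at the extremes of the level, the 3 largest changes in each direction and comparison among called genes without overlap of the libraries, those with an interaction adjusted p under 0.05, the 3 leading pairs called in the same direction, and pairs called in opposite directions. Sequences are from the RefSeq promoter table (GRCh38.p14) and the study's list of siRNAs. The code was tested on simulated data.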

Additional observations from a re-analysis of the deposited data

Results flagged for a closer look

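DHRS4-AS1 stood out because its response to doxorubicin differed between the siRNA groups by the test of the difference itself. Its log2 change with the drug was -0.16 under siNT and 0.72 under siMLK4. The interaction was 0.883 with an adjusted p of 0.036 in limma, over 3 libraries in each of 4 groups. All 3 siMLK4 doxorubicin libraries lay above all other 9 libraries. It was the only one of 109 antisense genes with an adjusted p under 0.05, a threshold that 1.20% of all genes passed, and leaving out any 1 of 8 libraries raised the adjusted p to between 0.058 and 0.095. By limma-voom it was 0.060 and on log2(normalized reads + 1) 0.052. What lies behind the difference was not tested.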

How the results depend on the processing

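None of the 31 named changes reversed in 680 combinations of a change and a setting, and 18 kept their call in every setting. The count of antisense genes called with doxorubicin was 47 in siNT and 43 in siMLK4 cells. With a threshold of 0.05 on the adjusted p and none on the change it was 72 and 66, with a mean of at least 6 in place of 7 it was 114 and 110 (of 280 genes), and with at least 8 it was 13 and 10 (of 36). With siMLK4 the counts were 5 with vehicle and 7 with doxorubicin. They were 36 and 26 with that threshold, 1 and 1 at a log2 change over 1, 9 and 11 with a mean of at least 6, and 2 and 2 with at least 8. No share of all genes is given for the changed thresholds, so the counts at these are not compared with all genes. With vehicle, limma-voom gave 10, log2(normalized reads + 1) gave 14, and a fit of only the groups compared gave 2, which ended the calls of ARHGAP5-AS1, PCBP1-AS1 and THAP9-AS1 (adjusted p = 0.015, 0.015 and 0.014). In this order, all genes split into 786 higher and 697 lower, 895 and 718, and 251 and 360, against 427 and 534 in the main fit. The interaction count was 0 and became 1 (DHRS4-AS1) at an adjusted p under 0.05. By limma-voom its adjusted p was 0.060 and on log2(normalized reads + 1) it was 0.052. The ranges when a library was left out are given for the antisense genes alone and are not compared with all genes. Leaving out a library gave 41 to 49, 38 to 47, 3 to 7, 3 to 8 and 0 to 0 called antisense genes, in the order doxorubicin in siNT and siMLK4 cells, siMLK4 with vehicle and doxorubicin, and interaction. Pairs of the same sign, 36, 47, 43 and 55 in that order, ranged from 34 to 42, 41 to 51, 40 to 48 and 50 to 59. They were 110, 122, 136 and 147 (of 247 pairs) with a mean of at least 6 and 11, 17, 13 and 16 (of 28) with at least 8. The median change of all genes, 0.00, 0.02, 0.01 and 0.02, was 0.18, 0.16, 0.11 and 0.09 with library totals as scaling and 0.09, 0.05, 0.07 and 0.03 with the upper quartile. The split of all genes in siMLK4 cells was then 2888 higher and 1275 lower with library totals, against 2147 and 1802. With at least 10 reads in every library, all genes split into 1253 higher and 1679 lower in siNT cells and the antisense genes into 42 and 5, and in siMLK4 cells the splits were 1290 and 1620 and 34 and 8. Limma-voom gave 39 higher and 11 lower antisense genes in siMLK4 cells, and 3110 and 2495 of all genes. With vehicle, siMLK4 calls went from 3 higher and 2 lower to 6 and 1 with upper quartiles, and those of all genes from 427 and 534 to 562 and 417. The median of the antisense genes minus that of all genes lay between 0.37 and 0.58 with doxorubicin in siNT cells over 21 fits, between 0.24 and 0.38 in siMLK4 cells, between 0.12 and 0.22 with siMLK4 under vehicle, and between 7.0e-05 and 0.043 with siMLK4 under doxorubicin. With the replicate block the called antisense genes numbered 47, 43, 5, 7 and 0, and no call changed. The cause of these differences was not tested. Head-to-head pairs numbered 28 within 500 and 51 within 2000 bases. Depth limits the least abundant antisense genes, down to 12 reads in a library.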
